A study of Macaca mulatta with 304 samples.

Results

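The genes described here are 10 of the 21070 in the count table, taken by their symbols: the chains of complement C1q and a set of complement regulators and receptors, measured in whole blood of rhesus macaques irradiated on the upper thorax. They were C1QA, C1QB and C1QC (the chains of C1q), C2 (a protease of the classical pathway), SERPING1 (the C1 inhibitor), CFP (properdin), CFD (factor D), CR1 (complement receptor 1), and C3AR1 and C5AR1 (the receptors for C3a and C5a). The samples came from 28 adult macaques of a Chinese sub-strain, 12 given 9.8 Gy (lower dose, LD) and 16 given 10.7 Gy (higher dose, HD), with as many males as females at each dose. A control draw from before irradiation (Day -2) was held for 24 of them, 12 per dose, and served as each animal's own reference. Irradiated blood came from 15 scheduled days between Day 3 and Day 270 and from 8 single draws on other days, 151 samples of LD and 129 of HD animals. No animal went through the time course without irradiation, so time and repeated bleeding cannot be told apart from radiation. All animals received an opioid analgesic in the first weeks, and those breathing fast received dexamethasone. Only 6 animals, 5 of them LD, were drawn on Day 270, so the later days describe fewer and mostly LD animals.

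Complement is a cascade of plasma proteins that marks targets for uptake and lysis and draws in leukocytes. C1q binds antibody and other surfaces and starts the classical pathway, in which C2 is cleaved to form part of the C3 convertase, while the C1 inhibitor shuts off the proteases bound to C1q. Factor D and properdin belong to the alternative pathway, factor D as the protease that cleaves factor B and properdin as the protein that holds the convertase together. The fragments C3a and C5a act through C3AR1 and C5AR1 on myeloid cells, and CR1 binds C3b and C4b on leukocytes and, in primates, on red cells. Most complement proteins of plasma are made in the liver, whereas C1q is made mainly by macrophages and dendritic cells, and CFP and CFD are transcribed in myeloid blood cells.

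C1QA, C1QB and C1QC lie side by side on chromosome 1 of the rhesus build Mmul_10, all on the minus strand, in a stretch of 24957 bases (chr1:202117786-202142742) in which RefSeq annotates 3 genes. Because their transcripts moved together, the 250 bases before the annotated start of each are shown, and beside them those of C5AR1, whose time course differed. Capitals mark matches on either strand to TTNNGNAAT (a CEBP motif), TTCNNNGAA (the interferon gamma activated site, GAS) or GAGGAAG (a PU.1 core).
C1QA (chr1:202142743-202142992, minus strand): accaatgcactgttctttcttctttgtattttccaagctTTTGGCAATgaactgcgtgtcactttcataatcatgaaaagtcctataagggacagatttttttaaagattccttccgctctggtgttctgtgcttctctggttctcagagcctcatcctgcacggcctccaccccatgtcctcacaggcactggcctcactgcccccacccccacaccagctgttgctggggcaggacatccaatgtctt
C1QB (chr1:202126078-202126327, minus strand): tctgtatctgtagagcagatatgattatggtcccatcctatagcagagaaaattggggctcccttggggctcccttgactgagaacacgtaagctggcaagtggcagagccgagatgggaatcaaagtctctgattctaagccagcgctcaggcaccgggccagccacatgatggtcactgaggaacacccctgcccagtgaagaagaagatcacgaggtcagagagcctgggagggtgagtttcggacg
C1QC (chr1:202135636-202135885, minus strand): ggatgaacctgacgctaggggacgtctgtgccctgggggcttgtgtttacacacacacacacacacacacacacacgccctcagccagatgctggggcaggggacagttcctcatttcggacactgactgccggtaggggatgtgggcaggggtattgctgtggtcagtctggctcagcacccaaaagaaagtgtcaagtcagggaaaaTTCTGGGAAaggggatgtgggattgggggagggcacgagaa
C5AR1 (chr19:47327029-47327278, plus strand): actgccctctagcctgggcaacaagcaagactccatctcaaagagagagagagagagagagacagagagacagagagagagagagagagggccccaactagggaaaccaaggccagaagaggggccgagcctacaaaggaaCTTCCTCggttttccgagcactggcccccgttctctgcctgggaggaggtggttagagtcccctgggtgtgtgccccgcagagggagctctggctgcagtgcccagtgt

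The C1QA window held 1 CEBP match, the C1QC window 1 GAS match, found on both strands because that pattern is its own reverse complement, and the C5AR1 window 1 PU.1 core. The C1QB window held none of the motifs searched, so no match was common to the C1q genes. Of 20774 annotated gene starts, 9.16% had a CEBP match in a window of this length, 5.98% a GAS match and 9.95% a PU.1 core. The core of the interferon-stimulated response element, GAAA followed by GAAA after any 2 bases (3.03% of all windows), and TATAAA (9.84%) matched in none of these windows. These are letter matches in the reference, and no binding was measured.

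Levels are given in CPM, the counts of a gene relative to all counts of its library, after upper quartile scaling. Per kilobase of annotated exon, the control medians of the level ran from 401 CPM for CFD through 120.8 for CFP, 51.6 for C5AR1 and 11.6 for CR1 to 4.84 for C3AR1. The chains stood at 2.95 CPM per kilobase for C1QA, 2.88 for C1QB and 1.99 for C1QC, and below them C2 at 0.590 and SERPING1 at 0.159. On Day 3 the chains were at 21.5, 23.1 and 17.99 CPM per kilobase and stood above CR1 (12.8) and C3AR1 (14.5). In Mmul_10 the others lie apart from the C1q cluster: C2 (gene 106997899) at chr4:137550339-137568916 on the minus strand with 18 exon blocks, SERPING1 (gene 703928) at chr14:15940630-15957675 on the minus strand with 8 exon blocks, CFP (gene 707386) at chrX:47573064-47578843 on the minus strand with 9 exon blocks, CFD (gene 721138) at chr19:628305-631825 on the plus strand with 5 exon blocks, CR1 (gene 718120) at chr1:65010091-65241068 on the plus strand with 60 exon blocks, C3AR1 (gene 716086) at chr11:11457209-11462824 on the plus strand with 2 exon blocks and C5AR1 (gene 718056) at chr19:47327279-47342818 on the plus strand with 2 exon blocks. Levels and changes of the C1q genes refer to gene 708477 for C1QA, gene 718307 for C1QB and gene 708589 for C1QC, and no annotated gene overlaps any of the 10. SERPING1 was the member that failed the filter of at least 3 counts in 80% of the samples, and the other 9 were tested. CR1 is built of long repeats, and how reads with several matches were counted is not given in the sources used here, so its level is uncertain.

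Library totals ran from 2840219 to 23638161 counts. The library names fall into 3 number series, called A, B and C here, whose meaning is not stated. The draws of Day 3 to Day 15 were of the same series as the animal's control in all 24 animals. Of the controls 20 were of series A and 4 of series C, and no draw after Day 21 was of series A, so for those 20 animals series and time cannot be told apart after Day 21. PTPRC, CD3E, CD79A, CSF3R, CD14, HBB, PPBP and NKG7, which mark leukocytes, red cells and platelets, had counts in every sample. In whole blood, more cells of a type and more RNA per cell cannot be told apart.

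A gene is said to have risen or fallen where it changed by 1.5-fold or more and its p, from edgeR's quasi-likelihood fit with each animal as its own block, was 0.05 or less after Benjamini-Hochberg adjustment over all genes. In the early window (Day 3 to Day 21, summed per animal), C1QA, C1QB, C1QC, C2 and C3AR1 rose, 5 of 9, where 5.79% of the 13751 genes tested did. In the medium window (after Day 21, up to Day 90), C3AR1 and C5AR1 rose, 2 of 9 against 4.48% of all genes. In the late window (after Day 90), C3AR1, C5AR1, CFD and CFP rose, 4 of 9 against 14% of all genes. No member fell in a window, where 1.75%, 1.27% and 18.5% of all genes fell. The median change of the 9 genes was 0.87, 0.09 and 0.30 on the log2 scale, and that of all genes -0.03, -0.02 and -0.13. With DESeq2's size factors the late median of all genes was -0.01. The late calls over all genes split into 1919 higher and 2548 lower, and with TMM scaling into 2270 and 1887.

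The C1q chains had the largest early changes of these genes. C1QA lay between 0.476 and 19.9 CPM in the controls, with a median of 3.64, and between 10.4 and 152 CPM on Day 3, with a median of 26.6. C1QB had a control median of 3.86 CPM (1.03 to 24.5) and a Day 3 median of 30.9 CPM (14.5 to 176). C1QC went from 2.46 CPM (0.384 to 14.4) to 22.3 CPM (9.71 to 132.24). Each of the 24 animals was above its own control on Day 3 for all of them, and 18 of 24, 14 of 24 and 19 of 24 Day 3 samples were above the highest control, that of the HD animal B2003. Among the 20 animals of series A the ranges did not overlap, for C1QB 14.5 to 55.7 CPM on Day 3 against 1.03 to 8.16 before.

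On Day 3, when 6.89% of all genes rose, 8 of the 9 members did. The log2 change was 3.15 ± 0.14 (SE, n = 24 animals; edgeR adjusted p = 4.07e-17) for C1QA, 3.06 ± 0.12 (adjusted p = 6.29e-18) for C1QB and 3.26 ± 0.10 (adjusted p = 7.21e-21) for C1QC, that is 8.85-fold, 8.34-fold and 9.57-fold. All chains also rose on Day 6, by 1.55 ± 0.13, 1.77 ± 0.12 and 1.64 ± 0.12, and on Day 9, by 0.60 ± 0.16, 0.82 ± 0.15 and 0.72 ± 0.19, days on which 6.04% and 5.15% of all genes rose. C1QA on Day 9 was not called without the animal block, with an adjusted p of 0.139. On Day 15 and Day 21 none of the chains passed. From Day 3 to Day 21, when 5.83% of all genes fell, 8 of the 9 members fell, with -3.15 ± 0.14 for C1QA, -2.69 ± 0.15 for C1QB and -3.34 ± 0.18 for C1QC, lower in 24 of 24 animals for each chain.

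**Figure D1:**
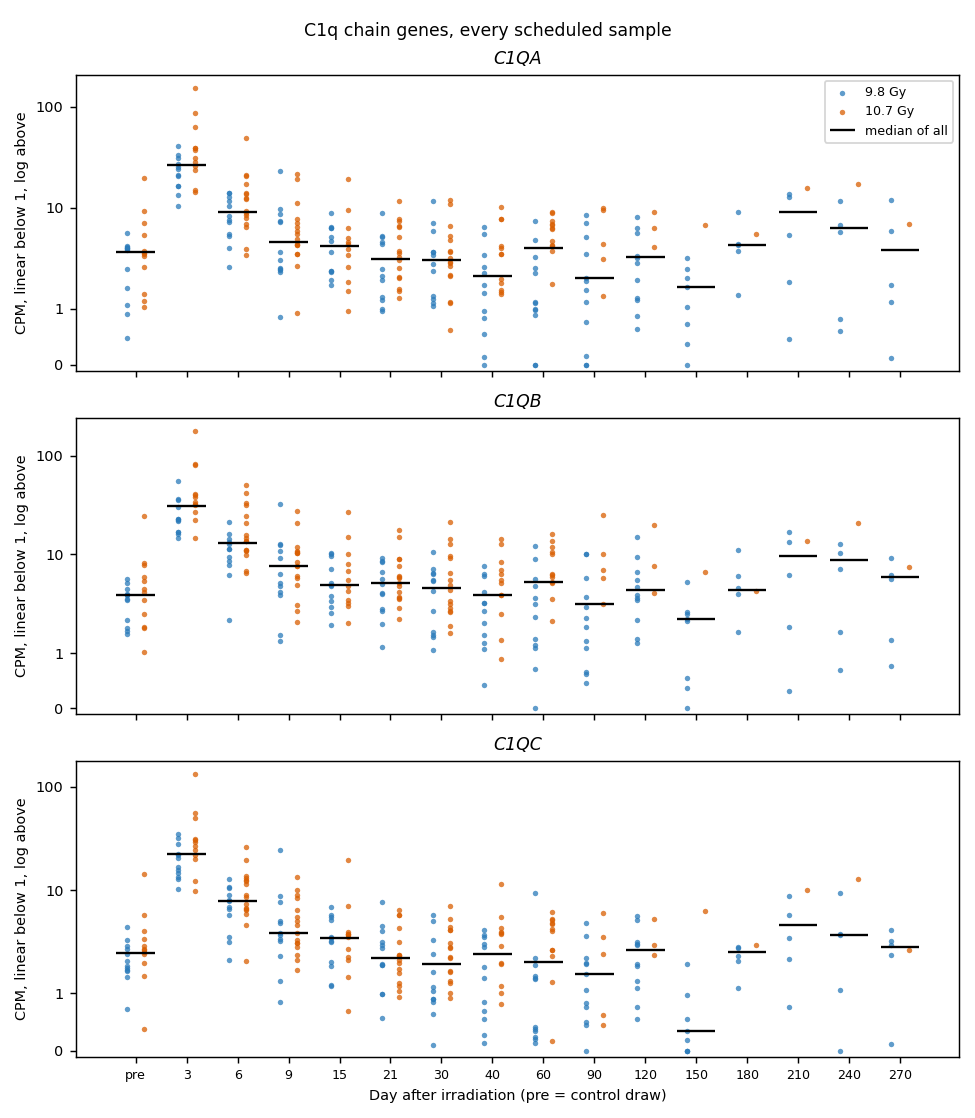
Level of C1QA, C1QB and C1QC (CPM, linear below 1 and log above) in each scheduled sample by day, with LD animals in blue, HD animals in orange and a bar at the median of all. The Day 3 medians of 26.6, 30.9 and 22.3 CPM are the highest of the scheduled days.

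Day 3 was the day of the highest level in 23 of 24 animals for C1QA, 23 for C1QB and 23 for C1QC. Summed over the early window, C1QA was 13.8 ± 11.4 CPM (SD, n = 24) against 4.09 ± 3.96 in the controls, C1QB 16.7 ± 13.1 against 4.67 ± 4.63 and C1QC 11.2 ± 8.91 against 2.97 ± 2.7033. The animals were far apart: B2003, B2504 and B2005, all HD and of series C, had 152, 86.9 and 63.2 CPM of C1QA on Day 3, and the highest value in series A was 41.1 CPM. The early log2 change was 1.81 ± 0.11, 1.87 ± 0.10 and 1.92 ± 0.09 (edgeR adjusted p = 7.82e-13, 2.47e-14 and 5.96e-15), and leaving out any single animal kept it between 1.76 and 1.87, 1.84 and 1.93, and 1.88 and 1.94. In the draws of Days 9 to 21 alone, an alternative added after the data were seen, it was 0.36 ± 0.11 for C1QA and 0.44 ± 0.13 for C1QC, below 1.5-fold, and 0.63 ± 0.10 for C1QB.

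The medium window gave -0.22 ± 0.19, 0.08 ± 0.16 and -0.33 ± 0.16 for C1QA, C1QB and C1QC, and the late window 0.30 ± 0.31, 0.28 ± 0.31 and -0.10 ± 0.31, none of which passed. With the library series as covariate in 1 fit of all samples, C1QA and C1QC had 0.37 ± 0.41 and 0.56 ± 0.42 in the medium window, and C1QC 1.06 ± 0.47 in the late window, the opposite sign. Late C1QB and C1QC passed in that fit, as given below, but the share of all genes passing is not given here. That fit took repeated draws of an animal as separate samples. In the edgeR fits of single days no chain passed upwards after Day 9. With the series as covariate more members were called from Day 180 on, as given below, with a chain among them on Day 210. DESeq2 called C1QB higher on Days 120 and 180 and C1QC on Day 210. Of all genes it called 2377, 1548 and 2291 higher on these days. The medians on Day 120 were 3.24, 4.36 and 2.62 CPM in 14 samples. C1QC fell on Day 150, a day on which 19.5% of all genes fell, with a median of 0.338 CPM (0 to 6.22), a log2 change of -1.73 ± 0.64 (n = 9 animals; edgeR adjusted p = 0.0424) and 1 of 9 animals higher. That value rests on few reads, as 3 of 9 samples had no count of C1QC, and the adjusted p was 0.0550 with TMM scaling, 0.0519 without the low-count filter and 0.333 without the animal block. On Day 210 the medians were 9.03, 9.73 and 4.62 CPM in 6 animals, with changes of 1.18 ± 0.55, 1.15 ± 0.53 and 0.93 ± 0.41 that did not pass (edgeR adjusted p = 0.103, 0.0962 and 0.0864).

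The chains followed each other across samples. Over all samples, which share animals and libraries, log2 CPM of C1QA and C1QB had a Pearson r of 0.91 (Spearman's rho 0.91), C1QA and C1QC 0.87 (0.87) and C1QB and C1QC 0.89 (0.88). C1QA had 0.854 counts for each count of C1QB in the controls, 0.902 on Day 3 and 0.652 on Day 21, and C1QC had 0.637, 0.745 and 0.496. Relative to C1QB, the other chains were thus highest on Day 3 among these times. For C1QA the ratio was higher on Day 180 (0.916) and Day 210 (0.97), with 6 samples each and fewer counts. Among the tested genes most like C1QB outside the 10 were SASH1 (r = 0.61), SELENOP (0.59), TMEM51 (0.59) and SDC3 (0.57), all below the r between the chains. Each of them rose on Day 3 by edgeR, by 1.70, 2.05, 1.53 and 2.06 on the log2 scale.

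C2, the protease cleaved by the C1 complex, rose less and for a shorter time than the chains. Its median was 1.68 CPM in the controls (0.509 to 5.28), 5.97 on Day 3 (1.26 to 19.4), 2.88 on Day 6 and 2.04 on Day 9. The ranges overlapped, with 14 of 24 Day 3 samples above the highest control. It rose by 1.56 ± 0.15 on Day 3 (n = 24; edgeR adjusted p = 1.48e-09; higher in 23 of 24 animals) and by 0.64 ± 0.18 on Day 6 (adjusted p = 0.00566; 17 of 24), and passed on no later day. Its medium and late changes were 0.03 ± 0.14 and -0.37 ± 0.28, the latter 0.49 ± 0.34 with the library series as covariate. The early window gave 0.87 ± 0.13 (adjusted p = 5.17e-06), but 0.51 ± 0.14 without Day 3, an alternative added after the data were seen, and 0.56 ± 0.12 with the deposited log2 values, both under 1.5-fold. The highest C2 level of all samples, 20.6 CPM, was that of the LD animal B1003 on Day 9.

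SERPING1, the inhibitor of the C1 proteases, was the least abundant member, at 0.318 CPM in the controls (0 to 1.40), with no count in 3 of 24. On Day 3 its median was 0.679 CPM (0.0889 to 1.80), and 4 of 24 samples were above the highest control. In the fit without the low-count filter, where 10.5% of genes were called on Day 3 and 7.27% in the early window, it had 1.17 ± 0.28 on Day 3 (edgeR adjusted p = 0.000984; higher in 20 of 24 animals) and 0.79 ± 0.25 in the early window (adjusted p = 0.0121). The medium and late windows gave 0.33 ± 0.32 and -0.09 ± 0.57 and did not pass. On Day 120 8 of 14 samples had no count.

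The alternative pathway genes CFP and CFD rose on Day 3 and again late. CFD was at 433 CPM in the controls (133.05 to 759), 800.3 on Day 3 (429 to 1406), 764 on Day 6 and 438 on Day 9. CFP was at 192 CPM in the controls (122.92 to 295), 314 on Day 3 (224 to 541), 284 on Day 6 and 171 on Day 9. The ranges overlapped, with 14 of 24 Day 3 samples above the highest control for CFD and 14 of 24 for CFP. On Day 3 CFD rose by 0.93 ± 0.09 (24 of 24 animals higher; edgeR adjusted p = 3.28e-10) and CFP by 0.76 ± 0.06 (23 of 24; adjusted p = 5.74e-11). On Day 6 CFD rose by 0.71 ± 0.12, while CFP, with 0.46 ± 0.10, was under 1.5-fold. Neither reached 1.5-fold over the early window, with 0.45 ± 0.08 and 0.28 ± 0.06, and in the draws of Days 9 to 21 alone the values were -0.01 ± 0.08 and -0.13 ± 0.07.

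On Day 120 the medians were 743 CPM for CFD (332 to 1849) and 308 for CFP (131.69 to 542) in 14 samples. Both rose on Day 120, CFD by 0.92 ± 0.23 and CFP by 0.59 ± 0.17, and on Day 210, by 0.81 ± 0.21 and 0.81 ± 0.19, when 12.7% and 12.8% of all genes rose. The late window gave 0.78 ± 0.17 for CFD (n = 14 animals; edgeR adjusted p = 0.000924; higher in 12 of 14) and 0.60 ± 0.14 for CFP (adjusted p = 0.00119; 14 of 14). CFP stood at the threshold of 0.585 and dropped below it in 6 of the 14 fits that left out 1 animal (B1001, B1005, B1006, B1503, B1506 or B2502), with 0.53 without B1506. In between, the medium window gave 0.43 ± 0.09 for CFD and 0.19 ± 0.08 for CFP. CFP and CFD had an r of 0.90 with each other over all samples.

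**Figure D2:**
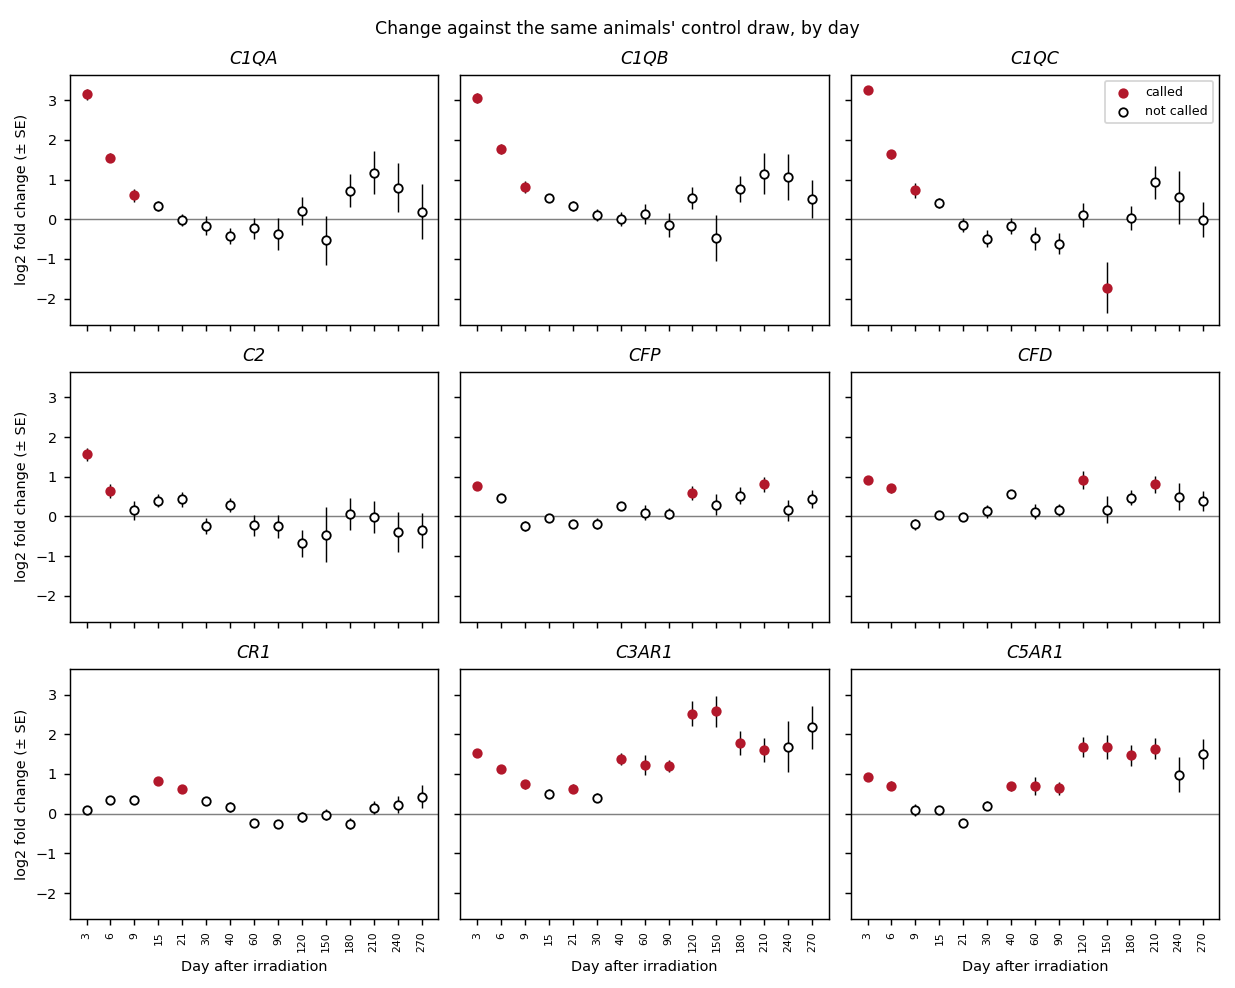
Log2 fold change of the 9 tested genes against the same animals' control draw (± SE) by scheduled day, with called days as filled points. The chains start above 3 on Day 3, C3AR1 was called on 11 of 15 days and C5AR1 on 9, and CR1 on Days 15 and 21.

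C3AR1, the C3a receptor, was called on 11 of the 15 scheduled days, the most of these genes. Its level was 10.0 CPM in the controls (4.28 to 22.4), 30.0 on Day 3 (14.8 to 51.6), 21.7 on Day 6, 13.977 on Day 15 and 13.9 on Day 30. It was 24.1 CPM on Day 40 (11.7 to 128.24), 41.7 on Day 120 (18.1 to 354) and 54.4 on Day 150 (14.4 to 146). Above the highest control lay 20 of 24 samples on Day 3, 3 of 28 on Day 30 and 12 of 14 on Day 120. The log2 change was 1.53 ± 0.10 on Day 3 (edgeR adjusted p = 4.73e-13; 24 of 24 animals higher), 0.40 ± 0.11 on Day 30 without a call, 1.38 ± 0.15 on Day 40 (adjusted p = 2.21e-07) and 2.51 ± 0.32 on Day 120 (adjusted p = 4.24e-05; 12 of 12). On Day 40 4.07% of all genes rose and on Day 30 5.9% were called in either direction, among them no member.

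C5AR1, the C5a receptor, was at 124.95 CPM in the controls (59.5 to 354), 224.61 on Day 3 (146 to 484), 139.6 on Day 9 and 111.56 on Day 21. It was 184 CPM on Day 40, 358 on Day 120 (166 to 637) and 483 on Day 210 (192 to 623). Early values lay largely within the control range, with 3 of 24 Day 3 samples above it, and 7 of 14 were above it on Day 120. The log2 change was 0.93 ± 0.10 on Day 3 (edgeR adjusted p = 6.92e-09; 22 of 24 animals higher), -0.24 ± 0.11 on Day 21 without a call, 0.69 ± 0.11 on Day 40 and 1.69 ± 0.25 on Day 120 (adjusted p = 0.000130; 12 of 12). C3AR1 and C5AR1 were also the members that rose on Day 60, by 1.23 ± 0.25 and 0.70 ± 0.23, on Day 90, by 1.20 ± 0.15 and 0.64 ± 0.16, on Day 150, by 2.58 ± 0.39 and 1.68 ± 0.30, and on Day 180, by 1.77 ± 0.31 and 1.47 ± 0.27, when 2.31%, 3.87%, 12% and 8.81% of all genes rose. Without the animal block C5AR1 on Day 90 was not called, with an adjusted p of 0.0689. From Day 3 to Day 21 it fell in the direct comparison, with -1.17 ± 0.08, as did C3AR1, with -0.90 ± 0.09.

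Over the early, medium and late windows the change of C3AR1 was 1.02 ± 0.09, 1.24 ± 0.14 and 2.51 ± 0.25, and that of C5AR1 0.45 ± 0.10, 0.72 ± 0.10 and 1.73 ± 0.22. In the late window C3AR1 was at 61.4 ± 31.4 CPM (SD, n = 14) against 10.2 ± 4.80 in the controls (edgeR adjusted p = 1.36e-06) and C5AR1 at 428 ± 159.7 against 134.51 ± 74.4 (adjusted p = 9.18e-06), each higher in 14 of 14 animals. The day of the highest level was Day 40 or later in 23 of 24 animals for C3AR1 and in 22 for C5AR1. In the 4 animals whose medium draws and control were of 1 series, an alternative added after the data were seen, C3AR1 had 1.73 ± 0.31 (edgeR adjusted p = 0.0127) and C5AR1 0.80 ± 0.15 (adjusted p = 0.0136). With the series as a covariate in 1 fit of all samples, the late values were 3.16 ± 0.30 for C3AR1, 2.19 ± 0.24 for C5AR1, 1.17 ± 0.23 for CFD and 1.04 ± 0.19 for CFP. C1QB and C1QC also passed, with 1.11 ± 0.40 and 1.06 ± 0.47, and the share of all genes passing is not given here. In that fit each draw counted on its own, and only 1 animal had late draws and a control of 1 series.

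On Day 240 and Day 270 the edgeR fits of single days called 0 members, where 6.76% and 0.00727% of all genes were called. C3AR1 and C5AR1 had an unadjusted p under 0.05 on both days, 2 members each, and DESeq2 called 0 members on Day 240 and 2 on Day 270, where of all genes it called 1275 higher and 914 lower and 1366 higher and 978 lower. With 6 animals, the log2 change of C3AR1 on Day 270 was 2.18 ± 0.54 and the fold change of C5AR1 2.83. The highest C3AR1 level of all samples, 354 CPM, was that of the HD animal B2507 on Day 120, its last draw, and the highest of C5AR1, 1269.5 CPM, that of the LD animal B1503 on Day 270.

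**Figure D3:**
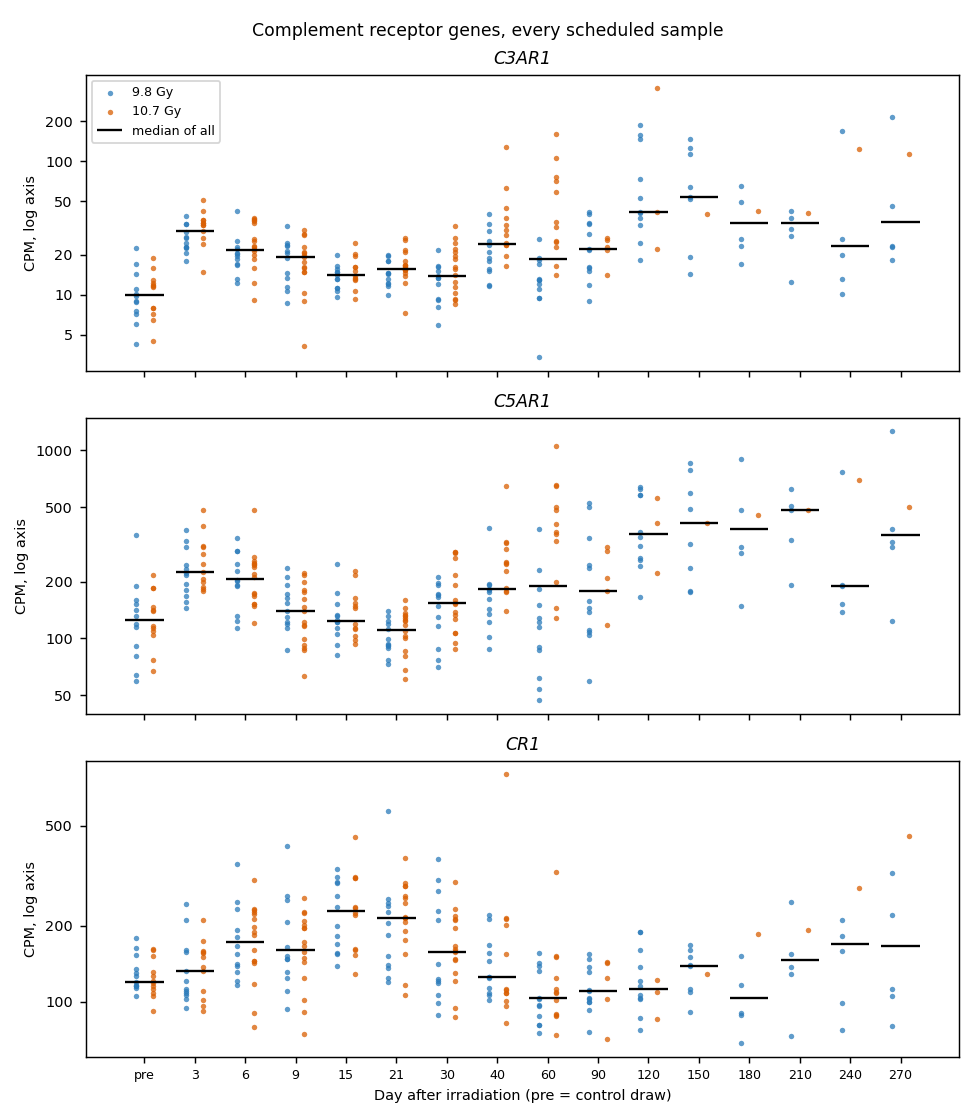
Level of C3AR1, C5AR1 and CR1 (CPM, log scale) in each scheduled sample by day, with LD animals in blue, HD animals in orange and a bar at the median of all. C3AR1 has medians of 10.0 CPM in the controls and 41.7 on Day 120, C5AR1 124.95 and 358, and CR1 is highest on Day 15 with 229.38 CPM.

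CR1, the receptor for C3b and C4b, had another time course. Its level was 120 CPM in the controls (91.9 to 179), 132.48 on Day 3 (91.7 to 244), 229.38 on Day 15 (128.2 to 452), 215.3 on Day 21 (105.81 to 574) and 109.9 on Day 90. Above the highest control lay 3 of 24 samples on Day 3, 16 of 24 on Day 15 and 0 of 17 on Day 90. On Day 3 its change was 0.08 ± 0.06 (edgeR adjusted p = 0.272). CR1 rose on Day 15, by 0.82 ± 0.08 (adjusted p = 4.83e-09; 24 of 24 animals higher), and on Day 21, by 0.63 ± 0.09 (adjusted p = 1.45e-06; 23 of 24), days on which 5.11% and 7.65% of all genes rose. In the 16 animals with Day 21 and control of 1 series it had 0.55 ± 0.12, under 1.5-fold. The early window gave 0.46 ± 0.07, also under 1.5-fold, and the medium and late windows 0.09 ± 0.09 and -0.09 ± 0.10. The highest CR1 level, 804 CPM, was in the last draw of the HD animal B2007 on Day 40, whose library had the lowest scaling factor of all, 0.379, and an erythroid list sum of 335840 CPM.

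Other complement genes came from a list of 38, of which 33 were in the count table and 19 passed the filter. In the early window 2 rose and 0 fell, with a median change of 0.09 against -0.03 for all genes: C5, the source of C5a, by 1.41 ± 0.12, and CD93, a transmembrane lectin of myeloid cells and endothelium, by 0.60 ± 0.09. In the medium window 0 rose and 1 fell, the B cell receptor CR2, with -0.59 ± 0.07. In the late window 8 rose and 2 fell, with a median of 0.56 against -0.13. The largest late rises were those of C5AR2, another receptor for C5a, with 1.62 ± 0.24, ITGAM, a chain of complement receptor 3, with 1.49 ± 0.26, and CD93 with 1.26 ± 0.17. CR2, with -1.73 ± 0.14, and ITGAX, a chain of complement receptor 4, with -0.64 ± 0.12, were lower.

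Some marker genes of blood and tissue myeloid cells moved with these genes, and their part in the results was not tested. On Day 3 11 of 12 tested macrophage genes rose and 0 fell, with a median of 0.96 against -0.06 for all genes, and of the nonclassical monocyte genes 8 of 10 rose and 1, SIGLEC10, fell. Of the other lists, 3 of 9 classical monocyte, 1 of 10 neutrophil and 13 of 27 interferon-stimulated genes rose that day. So did 14 of 15 erythroid and 7 of 7 platelet genes, while 10 of 10 B cell genes and 1 neutrophil gene, ALPL, fell. LPL, a lipase made by macrophages, rose by 2.27 ± 0.11, SELENOP, a selenium carrier, by 2.05 ± 0.13, GPNMB, a glycoprotein of macrophages, by 1.996 ± 0.17 and VMO1, a marker of nonclassical monocytes, by 1.98 ± 0.10. The 18 macrophage genes in the table summed to 633 to 1518 CPM in the controls and 1386 to 3047 on Day 3, and the 10 nonclassical monocyte genes to 399 to 1030.4 and 796 to 2142. MARCO, a receptor of tissue macrophages, had no count in 21 of 24 controls and 11 of 24 Day 3 samples, and LYVE1 in 12 and 2. The animals with the most C1QA on Day 3, B2003, B2504 and B2005, had macrophage sums of 3047, 2562 and 2509 CPM. B1504 and B1003 had macrophage sums of 2592 and 2574 CPM, with 33.3 and 31.2 CPM of C1QA.

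Over the early window 4 of 12 macrophage, 4 of 10 nonclassical monocyte, 2 of 9 classical monocyte and 0 of 10 neutrophil genes rose, and 1 nonclassical monocyte gene, SIGLEC10, and 1 neutrophil gene, ALPL, fell. Of the interferon-stimulated genes 16 of 27 rose and 0 fell, led by IFIT1 with 1.60 ± 0.15, IFI44L with 1.59 ± 0.24 and ISG15 with 1.36 ± 0.20. Among erythroid genes 14 of 15 rose and among platelet genes 5 of 7, whereas 10 of 10 B cell genes fell. In the medium window 4 of 12 macrophage, 5 of 10 nonclassical monocyte, 3 of 9 classical monocyte, 2 of 10 neutrophil, 5 of 27 interferon-stimulated, 11 of 15 erythroid and 0 of 7 platelet genes rose, and 5 of 10 B cell genes fell.

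In the late window, in which C3AR1 and C5AR1 changed most, 8 of 10 neutrophil genes rose and 0 fell, led by the formyl peptide receptor gene FPR2 with 2.33 ± 0.48 and PROK2 with 2.03 ± 0.29. Of classical monocyte genes 6 of 9 rose, led by S100A12 with 2.55 ± 0.41, and of macrophage genes 6 of 12, led by TREM2 with 1.72 ± 0.25. Nonclassical monocyte genes rose in 2 and fell in 3 of 10 cases, interferon-stimulated genes in 2 and 7 of 27, erythroid genes in 5 and 1 of 15, platelet genes in 7 and 0 of 7 and B cell genes in 0 and 10 of 10. The 11 neutrophil genes summed to 928 to 8165 CPM in the controls and 2336 to 11328 on Day 120, so these ranges overlapped. On Day 15, when CR1 was highest, 15 of 15 erythroid genes rose, with a median of 2.30, and their sum was 9787 to 92310 CPM against 1927 to 12418 in the controls.

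**Figure D4:**
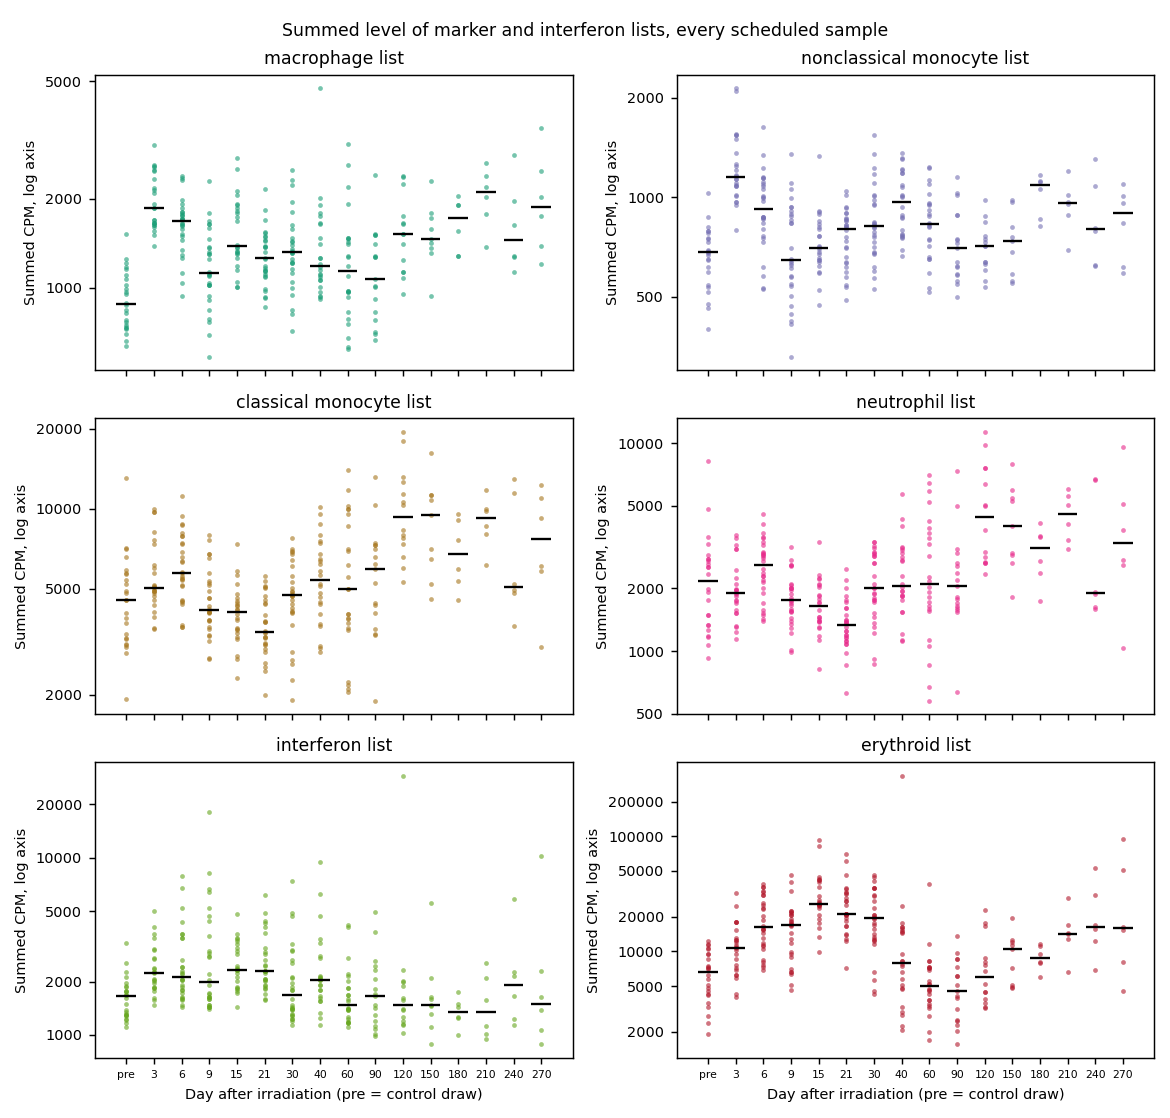
Summed level (CPM, log scale) of 6 gene lists in each scheduled sample by day, with the median marked. The macrophage median is 882 CPM in the controls and 1855 on Day 3, the neutrophil median 2171 in the controls and 4414 on Day 120, and the erythroid median 6683 in the controls and 26014 on Day 15.

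Over all samples, log2 CPM of the members can be set beside the log2 sum of each list, as a description. The most abundant genes of a list weigh most in its sum. C5AR1 had an r of 0.86 with the classical monocyte and 0.85 with the neutrophil list, the latter 0.73, 0.87 and 0.88 within series A, B and C. C3AR1 had 0.75 and 0.71, the latter 0.32, 0.78 and 0.81 within the series. CR1 had 0.84 with the erythroid list, and 0.84, 0.93 and 0.80 within the series. C1QB had 0.51 with the nonclassical monocyte and 0.44 with the macrophage list, the former 0.69, 0.30 and 0.48 and the latter 0.62, 0.15 and 0.40 within the series. C2 and SERPING1 had 0.54 and 0.47 with the interferon list. The tested genes most like SERPING1 were LOC718510 (0.54), LIG1 (0.53), UBE2L6 (0.48), FBXO6 (0.48) and STAT2 (0.47), which in counts this sparse is a listing only.

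Whether the doses differed was tested as the difference between HD and LD animals in the change from control, 12 animals each. In the early window edgeR called 0 of 9 members, 0 had an unadjusted p under 0.05, DESeq2 called 0, and 0% of all genes were called. C1QB changed by 2.07 ± 0.56 (SD, log2 scale) in HD and 1.75 ± 0.40 in LD animals, a difference of 0.26 ± 0.20 (SE; edgeR adjusted p = 0.897). In the medium window 3 members were higher in HD, where 2.77% of all genes were. C3AR1 changed by 1.68 ± 0.65 (SD) in HD and 0.87 ± 0.51 in LD animals, a difference of 0.81 ± 0.22 (edgeR adjusted p = 0.0267). C5AR1 changed by 1.13 ± 0.31 and 0.37 ± 0.43, a difference of 0.76 ± 0.15 (adjusted p = 0.00211), and CFD by 0.76 ± 0.35 and 0.16 ± 0.40, a difference of 0.60 ± 0.15 (adjusted p = 0.0159). CFP differed by 0.50 ± 0.14 (adjusted p = 0.0264), under 1.5-fold.

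The draws behind the medium window differed between the doses. HD animals gave 38 draws, 10 of them an animal's last, and LD animals 48, 0 of them a last draw. With Days 30 and 40 alone, which all 24 animals had, the difference was 0.42 ± 0.25 for C3AR1 (edgeR adjusted p = 0.637), 0.42 ± 0.15 for C5AR1 (adjusted p = 0.355) and 0.35 ± 0.17 for CFD (adjusted p = 0.545), with 0 members and 0.0509% of all genes called. Without last draws it was 0.50 ± 0.25, 0.44 ± 0.19 and 0.53 ± 0.15, with 0 members and 0.749% of all genes called. In the Day 30 samples alone, the levels of 16 HD and 12 LD animals were compared without the control draws, with sex as covariate. That difference in level was 0.40 ± 0.21, 0.28 ± 0.21 and 0.63 ± 0.31, with 0 members and 0% of all genes called. In animals with a series A control the 3 genes stayed called, with 0.77 ± 0.22 for C3AR1, 0.91 ± 0.16 for C5AR1 and 0.66 ± 0.15 for CFD, where 4.57% of all genes were called in either direction. These alternatives were added after the data were seen. Leaving out 1 animal ended the call of CFD in 8 of 24 fits (B1004, B1006, B1502, B1505, B2002, B2007, B2501 or B2503), with 0.53 without B2503.

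**Figure D5:**
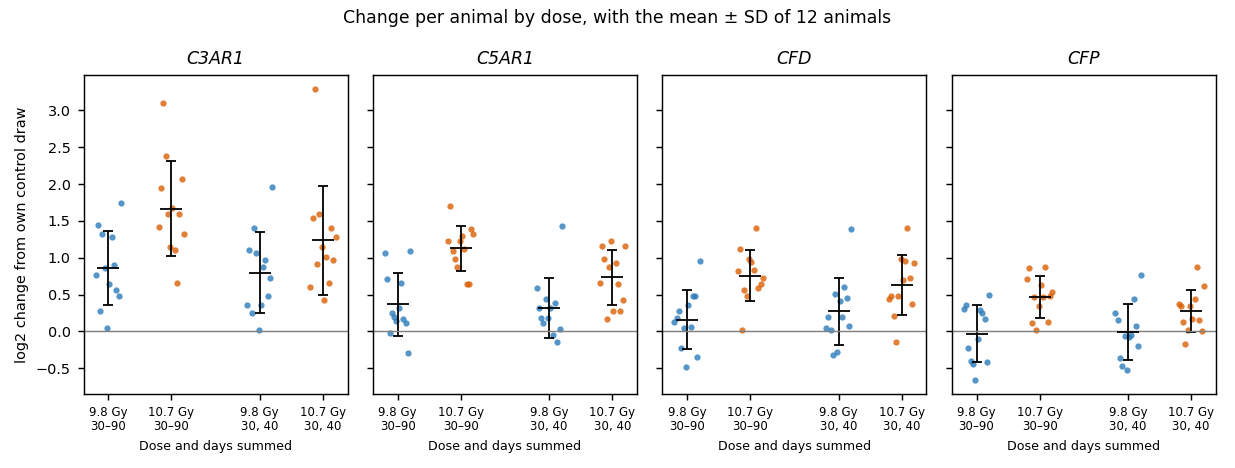
Log2 change from each animal's own control for LD and HD animals in the medium window, with all draws and with those of Days 30 and 40 alone, with the mean and SD of 12 animals per dose. The C5AR1 means are 0.37 (LD) and 1.13 (HD) with all draws and 0.32 and 0.73 with Days 30 and 40.

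Sex was compared in the same way. By edgeR 0 members were called in the early, medium and late windows, as were 0 by DESeq2, and 0% of all genes were called by edgeR in each. At an unadjusted p under 0.05 stood 1 member in the early window and 0 in the medium and late windows. That member was C1QB, with a change of 2.20 ± 0.40 (SD, log2 scale) in 12 females and 1.62 ± 0.43 in 12 males, a difference of 0.58 ± 0.17 (edgeR adjusted p = 1).

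The study asked whether early blood RNA foretells survival, and the last day drawn stands in for survival here. Over the early window, with dose and sex as covariates, the 6 animals drawn on Day 270 had 9.75 ± 4.74 CPM (SD) of C1QB and the 22 others 18.5 ± 13.5, a log2 difference of -0.47 ± 0.40 (SE; edgeR adjusted p = 0.869). The ranges overlapped, 6.12 to 18.6 CPM against 6.95 to 67.1. Among the others, B2006, B2008, B2506 and B2507 had no draw on Day 3 or Day 15. Their sums thus lack the day on which the C1q chains were highest, and the groups were not compared over equal days. C1QA differed by -0.40 ± 0.45 and C1QC by -0.23 ± 0.41. Of 9 members edgeR and DESeq2 called 0, 0 had an unadjusted p under 0.05, and 0% of all genes were called.

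In the 22 animals last drawn before Day 270, the last draw was set against the one before it. Animals that fell ill were euthanized after a final sample, but the last draw held here need not be that sample. B2005, B2007 and B2503 were last drawn on Day 40, and B2008 on Day 30. These draws came before the first death that the paper records, so they were not terminal. The comparison is therefore one of last draws held, and not of terminal samples. EdgeR called 0 members and 0% of all genes, and 4 members, C1QA, C3AR1, C5AR1 and CFP, had an unadjusted p under 0.05. C5AR1 was at 465 ± 200.5 CPM (SD) in the last draw and 338 ± 203 in the one before, with a log2 change of 0.65 ± 0.20 (SE; edgeR adjusted p = 0.191; 16 of 22 animals higher). C3AR1 was at 76.7 ± 76.7 and 45.4 ± 38.6 CPM, with 0.79 ± 0.30 (adjusted p = 0.197; 17 of 22). DESeq2 called 159 genes higher and 50 lower, among them 1 member, C5AR1, with 0.73 ± 0.20 (adjusted p = 0.0276).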

How the data were processed

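Whole blood RNA was depleted of ribosomal RNA and sequenced by the authors as stranded total RNA libraries. The authors trimmed reads with cutadapt 2.10, aligned them with STAR 2.7.6a to Mmul_10 with RefSeq annotation, and deposited raw counts per gene made with Subread 2.0.1. The strand setting and the treatment of reads with several matches are not given in the sources used here. The authors also deposited log2 values scaled by the upper quartile, for which their methods also name conditional quantile normalization. These served for 1 alternative.

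Groups, days and doses came from the sample labels. Counts were summed per animal and window and tested with edgeR 4.0.16 (quasi-likelihood, upper quartile scaling, animal as block) in R 4.3.3, over 13751 of 21070 genes with at least 3 counts in 80% of samples, with Benjamini-Hochberg adjustment over all of them. A call needed an adjusted p of at most 0.05 and 1.5-fold. Totals of 2840219 to 23638161 counts limit the precision for genes with few counts. Each animal is 1 replicate, except in the fit of all samples with the library series as covariate, where each draw counts on its own. The animal, named in the labels, pairs each draw with its control. Alternatives were DESeq2 1.42.0, TMM scaling, no filter, no block, limma 3.58.1 on the deposited log2 values, the library series and leaving out each animal. On simulated counts for the early window (13751 genes, 200 changed 3-fold) 200 were called with 0 false calls, and for Day 270 156 with 7. The simulated animals did not differ at baseline, and changes nearer to 1.5-fold were not simulated.

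Named were all members, up to 3 genes in each direction per list and window with the largest fold, and the 5 tested genes most correlated with C1QB and with SERPING1, of which 1 gene is not reported here. Day 3 values are given for some of the list genes so named, and VMO1 leads its list. The members and the lists were chosen with earlier results of these data known, and the C1q genes were among those the study selected in its models, so their counts are not independent evidence. Promoter bases were read from the Mmul_10 genome at RefSeq gene starts.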

Additional observations from a re-analysis of the deposited data

Results flagged for a closer look

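Single samples stood apart from the rest of their group by Dixon's criterion, applied to CPM, in 7 of 60 combinations of gene, dose and day with 4 to 10 samples. The combinations share animals and genes that moved together, and most of those flagged were of B1503, so their number was not set against chance. The LD animal B1503 had 169 CPM of C3AR1 on Day 240 and 217 on Day 270, with the next LD animal at 26.4 and 46.6, and 769 and 1270 CPM of C5AR1, with the next at 191 and 382. On Day 210 the same animal had 1270 CPM of CFD, with the next at 788. The LD animal B1506 had 5.42 CPM of C2 and 1.31 of SERPING1 on Day 150, with the next at 2.03 and 0.348.

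In the medium window the log2 change from control was larger in HD than in LD animals by 0.806 for C3AR1, 0.757 for C5AR1, 0.595 for CFD and 0.495 for CFP by edgeR's test of the difference, with the values at matched days given above.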

How the results depend on the processing

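Leaving out each animal in turn gave 5 to 5 called members in the early, 2 to 2 in the medium and 3 to 4 in the late window and 2 to 3 in the dose comparison. The dose comparison of the medium window called 0 members with Days 30 and 40 only and 0 without last draws, against 3. Of all genes 0.0509% and 0.749% were called in either direction. The Day 30 levels, compared without the control draws, gave 0 members and 0% of all genes. Days 9 to 21 gave 3 early calls against 5, with CFD at -0.011 and CFP at -0.13, where 6.79% of all genes were called in either direction. DESeq2 called 1 member in the last draw against 0. The cause was not tested.

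None of the values that changed sign had been called. Late C1QC was -0.10 and became 0.003 with DESeq2, 0.13 without the replicate block, 1.06 with the series as covariate and -0.251 to 0.052 leaving out an animal. Late CR1 was -0.09 and became 0.033 with DESeq2, 0.006 with TMM, 0 without the filter and 0.059 with the series as covariate. With that covariate late C2 was 0.49 against -0.37, medium C1QA 0.37 against -0.22 and medium C1QC 0.56 against -0.33. With the deposited log2 values medium C1QB was -0.013 and medium C2 -0.155. In the 4 animals of 1 series, all HD, medium C1QB was -0.103, and leaving out an animal gave -0.024 to 0.081 for medium C2. Without the replicate block Day 21 C3AR1 (0.57) and Day 90 C5AR1 (0.73) were also no longer called. Day 180 called 4 members with DESeq2 against 2, where of all genes it called 1548 higher and 1099 lower. With the series as covariate, Days 180, 210, 240 and 270 called 4, 7, 4 and 5 members. The share of all genes called in that fit is not given here, so these counts cannot be read as particular to the members. Low counts limit SERPING1, C2 and the later C1q values.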

Other observations

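The 4 highest levels of SERPING1 can be set beside the summed interferon-stimulated genes of the same samples. The HD animal B2507 had 5.34 CPM of SERPING1 on Day 120 with an interferon sum of 29090 CPM, and 4.57 on Day 9 with 8202. The HD animal B2504 had 2.85 CPM of SERPING1 on Day 60 with an interferon sum of 4061 CPM. The LD animal B1003 had 2.65 CPM of SERPING1 on Day 9 with an interferon sum of 18237 CPM. The controls had interferon sums of 1107 to 3309 CPM. These samples were picked after their values were seen.

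The 8 single draws on unscheduled days came from 8 animals between Day 71 and Day 172. C3AR1 was above the highest control, 22.4 CPM, in 8 of 8, with 23.7 to 189 CPM. C5AR1 was above its highest control in 7 of 8, with 278 to 752 CPM, and C1QB in 0 of 8, with 0.966 to 13.2 CPM. For C3AR1 the draw was higher than the animal's preceding one in 6 of 8, for C5AR1 in 5 and for C1QB in 1.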
